A study of Mus musculus with 4 samples.

Results

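Mitochondrial ribosomal protein genes of the nuclear genome were examined in myeloid-derived suppressor cells (MDSCs) exposed to the green tea catechin epigallocatechin-3-gallate (EGCG). The members are the genes annotated as protein coding whose symbol starts with Mrpl or Mrps followed by a number, which gave 78 of the 53465 genes listed. Another 5 genes with such symbols are annotated as pseudogenes and were left out. The large subunit of the mitochondrial ribosome is represented by 51 members and the small subunit by 27. For 77 of the 78 members the reads were enough for a test, among 14682 tested genes.

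MDSCs, immature cells of the myeloid lineage, build up in hosts with a tumor and restrain T cells. The MDSCs came from spleens of BALB/c mice bearing tumors of 4T1, a transplantable mammary carcinoma line, and were enriched on magnetic beads through Gr-1, the antigen of an antibody that reads both Ly-6G and Ly-6C. The study's methods describe male mice injected at 6 weeks of age and sorted 2 weeks later, whereas the sample labels place the sort on day 21. The control group consisted of 2 libraries from MDSCs kept for 6 h in control medium, and the EGCG treatment group of 2 libraries from MDSCs kept for 6 h in medium with 5 μg/mL EGCG. All the mice carried the tumor, so no group shows MDSCs of a healthy host, and the sources used here do not say whether replicate libraries came from separate mice, so that p values measure the spread between these libraries, which may be technical.

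The libraries held from 17767318 to 18390385 counts on genes. All 9 neutrophil markers examined (among them S100a8, S100a9 and Ly6g) were detected, with a summed level from 59628 to 70825 CPM in the control libraries against 70870 to 79939 CPM in the EGCG libraries, where CPM is counts per 1000000 of the TMM-scaled library size. Of these markers S100a8, Mmp9 and Ngp were higher and Ltf was lower in both EGCG libraries, and the groups overlapped for the other 5. None of the marker genes of 12 cell types was at 0 counts in all libraries. The 5 B cell markers summed to 1707 and 1801 CPM against 1901 and 1958 CPM (Ighm, Cd79a and Ms4a1 higher in both EGCG libraries, Cd79b overlapping), and the 6 T cell markers to 90.03 and 103.6 CPM against 103.8 and 107.5 CPM (Cd3d higher and Cd8a lower in both EGCG libraries, the others overlapping). The 6 macrophage markers summed to 360 and 365 CPM in the control libraries against 288 and 302 CPM in the EGCG libraries, and the 4 proliferation markers to 477 and 487 CPM against 388 and 374 CPM. Of the latter, Mki67 and Top2a were lower in both EGCG libraries, and the groups overlapped for Ccnb1 and Cdk1. In the test across all genes described below, 1 of the 4 proliferation markers passed, and no tested marker of the other cell types did. Summed markers were also lower in both EGCG libraries for endothelial cells (130 and 139 CPM against 103 and 111 CPM), monocytes (1005 and 971 against 918 and 920), basophils and eosinophils (1112 and 985 against 956 and 821) and platelets (36.3 and 39.3 against 32.4 and 32.0). Single markers lower in both EGCG libraries were Pecam1, Cdh5, Kdr and Vwf of the 5 for endothelial cells, Adgre1, C1qc, Vcam1 and Cd5l of the 6 for macrophages, Csf1r and F13a1 of the 6 for monocytes, Prg2 and Epx of the 4 for basophils and eosinophils, and Itga2b of the 4 for platelets, and the groups overlapped for the others. The part of the cell mixture in the results that follow was not tested, and in bulk RNA fewer cells of a type and less RNA per cell cannot be told apart.

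Mitochondria keep a ribosome of their own, which resembles that of bacteria and translates the few mRNAs of the mitochondrial genome into core subunits of the respiratory chain. Its rRNAs are transcribed from the mitochondrial genome, whereas its proteins are all encoded by nuclear genes, made in the cytosol and imported. Many of these proteins have a bacterial counterpart, and the others are specific to mitochondria. Several of their promoters are known to be read by NRF1, ETS factors such as GABPA, and YY1, factors shared with the nuclear genes of the respiratory chain.

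The promoters of the members that stand out in the comparison with EGCG are shown first, since these short windows hold the motifs that were searched for in all members. RefSeq gave a window of 250 bases before to 50 bases after the start for 69 of the 78 members (75 windows, GRCm38.p6). Each window below is written 5′ to 3′ on the strand of its gene. Capitals mark matches, on either strand, to the letters GCGCANGCG (NRF1), CCGGAAG (ETS factors), AAGATGGCG (YY1) or CACGTG (the E-box, bound by Myc and related factors). A match describes letters in the window and does not show binding.
Mrps18c: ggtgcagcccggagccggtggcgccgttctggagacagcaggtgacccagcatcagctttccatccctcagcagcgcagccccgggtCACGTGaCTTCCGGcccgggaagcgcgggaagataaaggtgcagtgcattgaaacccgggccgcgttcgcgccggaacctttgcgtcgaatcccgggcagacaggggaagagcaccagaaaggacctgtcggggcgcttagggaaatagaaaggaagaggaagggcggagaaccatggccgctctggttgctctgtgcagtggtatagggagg
Mrpl33: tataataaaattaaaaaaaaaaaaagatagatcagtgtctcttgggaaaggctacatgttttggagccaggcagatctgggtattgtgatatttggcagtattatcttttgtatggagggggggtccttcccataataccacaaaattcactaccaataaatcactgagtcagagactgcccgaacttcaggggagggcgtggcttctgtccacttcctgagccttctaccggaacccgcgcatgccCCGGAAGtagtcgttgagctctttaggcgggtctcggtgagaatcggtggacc
Mrpl12: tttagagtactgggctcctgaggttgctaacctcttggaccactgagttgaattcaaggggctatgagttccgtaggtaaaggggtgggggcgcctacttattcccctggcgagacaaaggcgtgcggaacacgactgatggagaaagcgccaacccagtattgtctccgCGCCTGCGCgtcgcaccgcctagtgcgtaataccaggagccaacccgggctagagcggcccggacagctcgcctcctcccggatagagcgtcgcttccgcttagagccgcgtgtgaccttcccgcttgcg
Mrpl20: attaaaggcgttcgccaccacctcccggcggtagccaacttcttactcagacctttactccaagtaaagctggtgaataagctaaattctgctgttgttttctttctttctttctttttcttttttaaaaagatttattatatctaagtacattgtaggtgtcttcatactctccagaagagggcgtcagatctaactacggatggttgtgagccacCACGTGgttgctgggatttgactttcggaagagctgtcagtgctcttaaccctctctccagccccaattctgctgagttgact
Mrpl57: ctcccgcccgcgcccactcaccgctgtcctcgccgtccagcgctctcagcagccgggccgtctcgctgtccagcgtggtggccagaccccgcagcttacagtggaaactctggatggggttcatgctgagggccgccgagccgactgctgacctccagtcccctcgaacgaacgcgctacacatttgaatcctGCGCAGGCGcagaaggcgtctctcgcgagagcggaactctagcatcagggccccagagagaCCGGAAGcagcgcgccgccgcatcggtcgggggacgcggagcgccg
Mrps11: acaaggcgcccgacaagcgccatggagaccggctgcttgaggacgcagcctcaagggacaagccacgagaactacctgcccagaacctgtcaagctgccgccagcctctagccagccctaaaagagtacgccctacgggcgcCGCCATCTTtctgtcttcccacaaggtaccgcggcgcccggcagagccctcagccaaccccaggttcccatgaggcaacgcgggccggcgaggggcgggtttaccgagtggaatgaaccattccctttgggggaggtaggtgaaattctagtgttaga

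The first 5 of these windows belong to the members with the smallest p values, and the last shows the YY1 letters, which none of the other windows holds. The window of Mrps18c (chr5:100798509-100798808, plus strand) carries an E-box centred 160 bases before the start and, next to it, an ETS match centred 153 bases before the start. In the window of Mrpl33 (chr5:31613701-31614000, plus strand) an ETS match lies on the start itself, though the gene model of GENCODE M21 begins further upstream, at 31596935. The window of Mrpl12 (chr11:120484387-120484686, plus strand) has an NRF1 match centred 76 bases before the start. Mrpl57 (chr14:57825989-57826288, plus strand) has both an NRF1 match, centred 53 bases before the start, and an ETS match, centred 7 bases after it. The window of Mrpl20 (chr4:155802628-155802927, plus strand) holds an E-box centred 30 bases before the start and no NRF1, ETS or YY1 match. Mrps11 (chr7:78782881-78783180, plus strand) has its YY1 match centred 104 bases before the start.

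Over all 75 member windows, the ETS letters were found in 34.7%, against 17.4% of the 12618 windows of tested genes and 8.86% of all 32851 windows of the same length. The NRF1 letters were found in 21.3% of member windows, 12.8% of windows of tested genes and 6.25% of all windows. For YY1 the shares were 10.7%, 2.92% and 1.40%. At least one of these 3 motifs occurred in 56% of member windows, 29.2% of windows of tested genes and 14.8% of all windows. The E-box was no more frequent in member windows (9.33%) than in those of tested genes (9.86%), and the letters GGGCGG, read by SP factors, were less frequent (52.0% against 60.2%). The median GC content was 58.7% in member windows, 60.3% in windows of tested genes and 52.7% in all windows. No test was made of these shares, as windows of alternative starts of 1 gene and of head-to-head neighbors share bases.

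**Figure D1:**
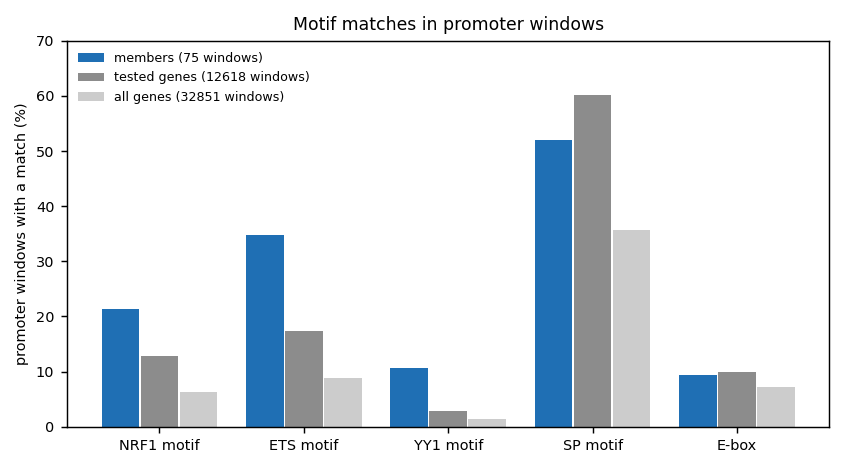
Share of promoter windows (y axis, percent) that hold each of 5 motifs (x axis), for windows of the members, of all tested genes and of all genes. The bars for ETS reach 34.7%, 17.4% and 8.86%, and those for the SP letters 52.0%, 60.2% and 35.7%.

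The level of a member within these cells was compared per kilobase of exon, as CPM divided by the length of all its annotated exons. The median over the 77 tested members was 5.35 CPM per kilobase, against 4.06 over all tested genes, and 43 of the members lay above the latter. The quartiles of the members were 2.07 and 11.5 CPM per kilobase. From the highest to the lowest tested member the levels spanned 161-fold.

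Mrps21, a protein of the small subunit, had the highest level, at 41.2 ± 1.11 CPM per kilobase (SD over the 4 libraries). It was followed by Mrpl43 at 36.2 ± 3.81 and Mrpl14 at 31.02 ± 2.15 CPM per kilobase. The libraries of Mrpl43, which lay between 33.1 and 41.7 CPM per kilobase, overlapped both those of Mrps21 (40.0 to 42.3) and those of Mrpl14 (28.6 to 33.7), so the order of neighbors is not separated by the spread. Of the exons of Mrpl43, 33.4% overlap other genes, most of all Twnk on the other strand, and since the counting ignored strand its count is uncertain. The same holds for Mrpl14, of whose exons 11.2% overlap other genes, most of all Tmem63b on the other strand (295 to 362 counts). At the low end lay Mrpl23 at 0.255 ± 0.0637, Mrps10 at 0.803 ± 0.0851 and Mrps36 at 0.806 ± 0.149 CPM per kilobase. Mrpl23 encodes a protein beside the exit tunnel of the large subunit, and its 4 libraries held 30, 22, 16 and 22 counts. As 14.2% of its 31-base words recur in other transcripts, most of all in Mrpl23-ps1, a processed pseudogene with 93 to 118 counts, the count of Mrpl23 is uncertain. Mrps36 likewise shares 21.0% of its words, most of all with Mrps36-ps1 (31 to 51 counts), against 14 to 22 counts of Mrps36 itself. Mrps21 shares 14.5% of its words with other transcripts, Mrpl22 29.8%, Mrpl41 21.1% and Mrpl45 13.4%, without overlapping exons, so their counts are uncertain too. Mrps36 carries a ribosomal name but is also known as a component of the oxoglutarate dehydrogenase complex. The counts of fold changes given here hold it, and without it 57 of 76 members were higher with EGCG.

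The length that is used moves single members. With the longest transcript in place of all exons the median was 6.53 CPM per kilobase, and 9 of the 10 highest members were the same. Mrpl33, whose annotated exons add up to 7326 bases against 2741 bases of its longest transcript, went from 14.9 to 39.8 CPM per kilobase. Between replicates the median absolute log2 difference of a member was 0.15 for control and 0.10 for EGCG, where all tested genes had 0.14 for both.

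**Figure D2:**
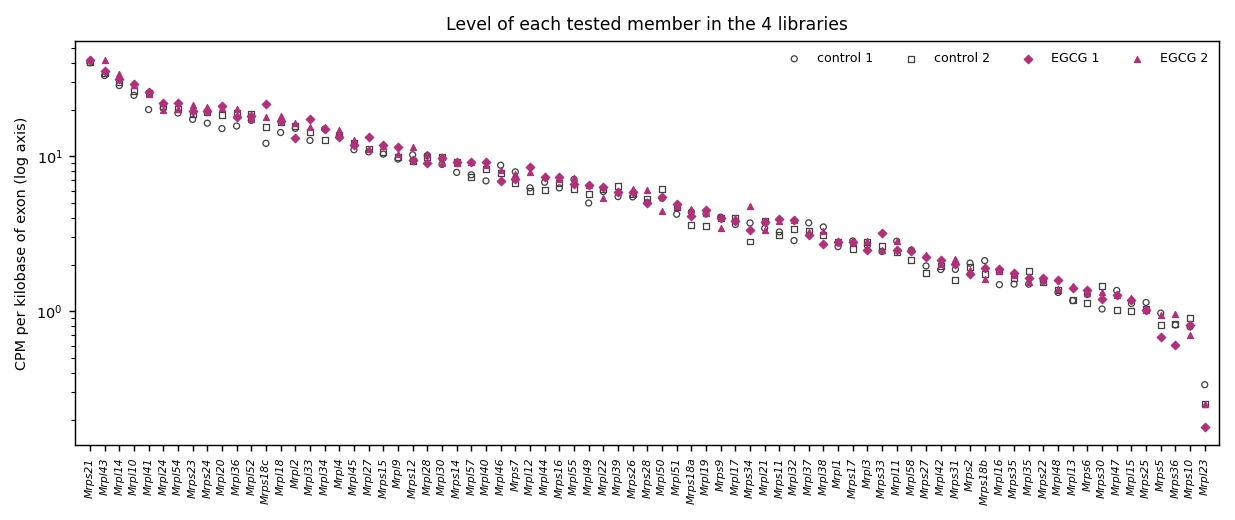
Level of each tested member (x axis, ordered by mean level) in CPM per kilobase of exon on a log axis, with open symbols for the 2 control libraries and filled symbols for the 2 EGCG libraries. Levels run from 41.2 (Mrps21) to 0.255 (Mrpl23), and the 4 libraries of a member lie close together compared with the distance between members.

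One member was not detected. Mrpl53 (ENSMUSG00000030037, chromosome 6 of GRCm38 from 83109040 to 83109939) encodes a protein of the large subunit and had 0 counts in all 4 libraries, which allows up to 3 counts, or 0.164 to 0.168 CPM, in a library. However, 88.0% of its exons overlap other genes, most of all Gm42688, a protein-coding gene model on the same strand, which had 11 and 13 counts in the control libraries against 6 and 13 in the EGCG libraries. The 0 counts therefore do not show that the gene is silent.

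The comparison of EGCG with control asks which of these genes MDSCs express at another level after 6 h with EGCG. Small differences toward higher expression with EGCG were common among the members, and no single member passed the test. Of the 77 tested members, 57 (74.0%) were higher in the EGCG treatment group and 20 were lower, whereas 50.6% of all tested genes were higher. The median log2 fold change of the members was 0.11, against 0.0031 over all tested genes, and the quartiles of the members were -0.0073 and 0.18. With edgeR's quasi-likelihood fit and p values adjusted over all tested genes (Benjamini-Hochberg), 0 members had an adjusted p under 0.05, where the whole table had 22 such genes (0.150%, 2 higher and 20 lower). DESeq2 called 0 of the 36 members for which it gave an adjusted p (the others, Mrpl12 among them, were without one and could not be called).

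At an unadjusted p under 0.05 there were 7 members, all of them higher with EGCG (9.09% of those tested, against 5.22% of all tested genes). No member was lower at that level, where 7.02% of all tested genes were. With DESeq2 4 members (5.19%) were higher at that level, as were 1.43% of the 27490 genes it tested without a filter on low counts. Both EGCG libraries lay above both control libraries for 35 members (45.5%, against 21.5% of all tested genes), and below them for 3 members (3.90%, against 21.2%). All fold changes were small: none exceeded 1.5-fold, 43 lay within 1 standard error of 0 and 9 were more than 2 standard errors away from it. The standard errors ran from 0.09 to 0.40 with a median of 0.13, and counting error alone gave a median of 0.09. Exons of 18 members overlap those of other genes by more than 10%, and among the other 60, all of them tested, 43 were higher (median log2 fold change of 0.10).

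**Figure D3:**
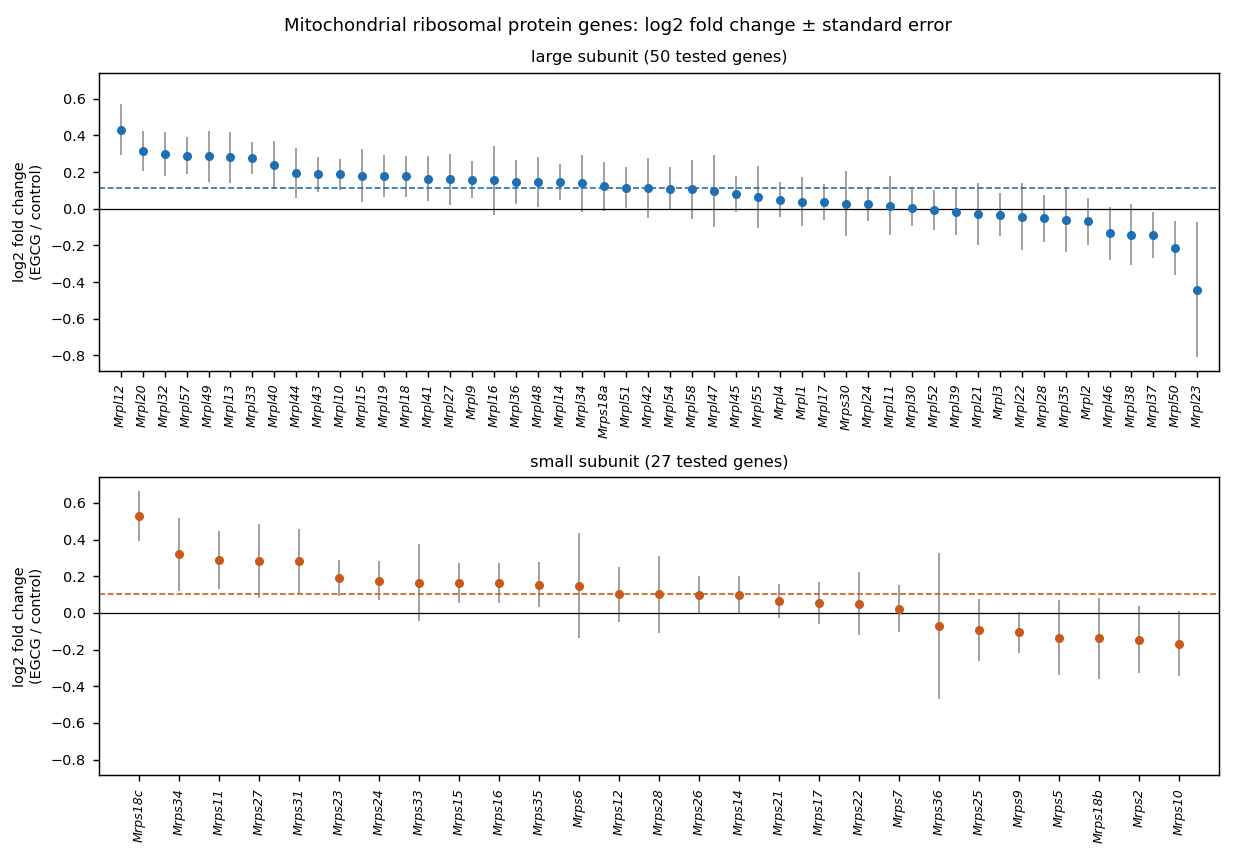
Log2 fold change (EGCG over control, y axis) of each tested member (x axis), with the large subunit above and the small subunit below. Points are estimates, vertical lines are ± 1 standard error, and the dashed lines are the medians of 0.11 and 0.10. Values run from 0.53 (Mrps18c) to -0.44 (Mrpl23).

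Most members were higher with EGCG in both subunits. Of the 50 tested genes of the large subunit, 37 were higher with EGCG (median log2 fold change of 0.11), and of the 27 genes of the small subunit, 20 were higher (median of 0.10). Members with a bacterial counterpart (35 of 47 higher, median of 0.10) and members specific to mitochondria (22 of 30 higher, median of 0.11) also had like medians. The difference between these classes was not tested.

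The member with the smallest p value was Mrps18c, which encodes a small-subunit protein of a family with 3 mammalian genes. Mrps18c (ENSMUSG00000016833) lies on chromosome 5 of GRCm38 from 100798627 to 100804471. It had 238 and 295 counts (13.03 and 16.51 CPM) in the control libraries against 421 and 346 counts (23.2 and 19.4 CPM) in the EGCG libraries. The groups did not overlap, though the replicates of each group also stood apart. The log2 fold change was 0.53 (standard error 0.14, adjusted p = 0.141 by edgeR's quasi-likelihood test). Its adjusted p ran from 0.00227 to 0.659 over 15 alternative fits. With control replicate 1 left out its log2 fold change was 0.37, with control replicate 2 left out 0.71, and it was called without control replicate 2 or EGCG replicate 2. Of its exons, 23.2% overlap other genes, most of all the predicted gene Gm43511 on the same strand, which had 18 and 15 counts in the control libraries against 8 and 8 in the EGCG libraries. Since 34.5% of its 31-base words recur in transcripts of other genes, its count is uncertain.

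The other genes of that family had fold changes within 1 standard error of 0. Mrps18a, whose protein sits in the large subunit in spite of its name, had 16.2 and 13.2 CPM in the control libraries against 15.2 and 16.7 CPM in the EGCG libraries (log2 fold change of 0.12, standard error 0.13). Mrps18b had 4.44 and 3.64 CPM against 3.97 and 3.36 CPM (log2 fold change of -0.14, standard error 0.22), and 30.5% of its exons overlap other genes, most of all the antisense gene Gm16279. The groups overlapped for both, and the difference between the 3 genes was not tested.

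Among the proteins of the large subunit with a bacterial counterpart, Mrpl33 had 1691 and 1876 counts (92.6 and 105.0 CPM) in the control libraries against 2296 and 2008 counts (126.6 and 112.4 CPM) in the EGCG libraries. For Mrpl33 the log2 fold change was 0.28 (standard error 0.09, adjusted p = 0.230). The gene (ENSMUSG00000106918) lies on chromosome 5 from 31596935 to 31664384. It was the member with the most counts, and its EGCG libraries were both above its control libraries. Mrpl20 (ENSMUSG00000029066, chromosome 4 from 155802878 to 155809975), a protein that binds the rRNA of the large subunit, had 458 and 545 counts (25.1 and 30.5 CPM) against 640 and 604 counts (35.3 and 33.8 CPM), and a log2 fold change of 0.31 (standard error 0.11, adjusted p = 0.267). Control replicate 1 was the lowest library for both genes, and without it the log2 fold change of Mrpl20 was 0.18 and that of Mrpl33 0.19.

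Mrpl12 (ENSMUSG00000039640, chromosome 11 from 120484613 to 120489065) belongs to the stalk of the large subunit, where translation factors bind, and its protein is also known to bind the mitochondrial RNA polymerase. It had 175 and 163 counts (9.58 and 9.12 CPM) in the control libraries against 238 and 216 counts (13.1 and 12.1 CPM) in the EGCG libraries. Its replicates were close to each other, and the log2 fold change of 0.43 (standard error 0.14, adjusted p = 0.230) stayed between 0.37 and 0.49 in the alternative fits. Its exons overlap those of Gm16755 on the other strand (13.1%), a gene of 1 to 5 counts in these libraries. Mrpl10, the base of the stalk, had 770 and 798 counts against 905 and 874 counts, a log2 fold change of 0.19 (standard error 0.09, adjusted p = 0.405). Mrpl11, the third stalk protein, had 167 and 140 counts against 146 and 163 counts, and its groups overlapped (log2 fold change of 0.02, standard error 0.16).

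Mrpl57 (ENSMUSG00000021967, chromosome 14 from 57826234 to 57829296), a small protein of the large subunit that is specific to mitochondria, had 410 and 389 counts (22.5 and 21.8 CPM) in the control libraries against 491 and 482 counts (27.08 and 26.99 CPM) in the EGCG libraries. Among the 7 members with an unadjusted p under 0.05, its log2 fold change of 0.29 (standard error 0.10, adjusted p = 0.273) changed least with the library left out, from 0.27 to 0.32. Another of these was Mrpl32, whose protein is processed by a mitochondrial protease before it enters the ribosome. It had 260 and 304 counts against 349 and 343 counts (log2 fold change of 0.30, standard error 0.12, adjusted p = 0.344), and leaving out control replicate 1 gave 0.18, leaving out control replicate 2 gave 0.44.

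In the small subunit, the members after Mrps18c with the smallest p values were Mrps23, Mrps11 and Mrps24. Mrps23, which is specific to mitochondria, had 492 and 521 counts in the control libraries against 557 and 595 counts in the EGCG libraries (log2 fold change of 0.19, standard error 0.10, adjusted p = 0.471). Mrps11, on the platform of the small subunit, had 129 and 121 counts against 155 and 149 counts (log2 fold change of 0.29, standard error 0.16, adjusted p = 0.503). Mrps24 had 437 and 508 counts against 523 and 541 counts (log2 fold change of 0.18, standard error 0.11, adjusted p = 0.556). The groups did not overlap for any of these, but Mrps24, which overlaps other genes over 15.4% of its exons, most of all Urgcp, was at 0.06 without control replicate 1.

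Mrps11 and Mrpl46 are head-to-head neighbors on chromosome 7. The windows around their starts share 141 bases and their gene models 413 bases on opposite strands. Mrpl46 had 226 and 196 counts in the control libraries against 178 and 205 counts in the EGCG libraries, a log2 fold change of -0.13 (standard error 0.14), which was -0.02 without EGCG replicate 1 and -0.25 without EGCG replicate 2. Since the counting ignored strand, reads from the shared bases could not be told apart.

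For Mrpl3, Mrpl4, Mrpl22 and Mrpl24 of the large subunit the fold changes lay within 1 standard error of 0. Mrpl3 had a log2 fold change of -0.03 (standard error 0.12), Mrpl4 of 0.05 (0.09), Mrpl22 of -0.04 (0.18) and Mrpl24 of 0.02 (0.09), and the groups overlapped for each. Of the exons of Mrpl24, 26.3% overlap other genes, most of all Rrnad1 on the other strand (224 to 297 counts), so its count is uncertain. Mrpl23, also of the large subunit, had the lowest value of all members, -0.44, with a standard error of 0.37 at its 16 to 30 counts, and leaving out EGCG replicate 2 gave -0.70, leaving out control replicate 1 gave -0.22. Mrpl45, which holds the ribosome at the inner membrane where its products are inserted, had 522 and 562 counts against 556 and 586 counts (log2 fold change of 0.08, standard error 0.10, from 0.02 without control replicate 1 to 0.15 without control replicate 2).

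Other members with a role of their own are described by their values. Mrpl58, a peptidyl-tRNA hydrolase that became part of the large subunit, had a log2 fold change of 0.11 (standard error 0.16), with 0.22 when control replicate 1 was left out and 0.0089 when control replicate 2 was left out. Mrpl44, related to RNase III enzymes, was at 0.19 (0.14), and at 0.12 when control replicate 2 was left out. Mrpl41 and Mrpl28 of the large subunit were at 0.16 (0.12) and -0.05 (0.13), and Mrps30, a large-subunit protein with a small-subunit name, at 0.03 (0.18). In the small subunit, Mrps12 of the decoding center was at 0.10 (standard error 0.15), Mrps16 at 0.16 (0.11), Mrps22 at 0.05 (0.17) and Mrps27, a pentatricopeptide repeat protein, at 0.28 (0.20). The 4 EGCG and control libraries of Mrps16 and Mrps27 did not overlap, nor did those of Mrpl44 and Mrps22. Mrps34, at 0.32 (0.20), overlaps other genes, most of all Mapk8ip3 on the other strand, over 77.8% of its exons and had 140 and 104 counts against 126 and 177, with overlapping groups. Its value was 0.043 without EGCG replicate 2 and 0.56 without EGCG replicate 1.

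The 3 members whose EGCG libraries both lay below the control libraries were Mrpl37, Mrps2 and Mrps25, named here after their values were seen. Mrpl37 had 16.6 and 14.7 CPM against 13.8 and 14.6 CPM (log2 fold change of -0.14, standard error 0.12). Mrps2 had 5.97 and 5.65 CPM against 5.07 and 5.43 CPM (log2 fold change of -0.15, standard error 0.18). For Mrps25 (7.50 and 6.77 CPM against 6.73 and 6.66 CPM, log2 fold change of -0.09), 69.8% of the exons overlap other genes, most of all Nr2c2, which itself had a log2 fold change of -0.32. In each of these genes the nearest libraries of the groups were closer than the control libraries were to each other.

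The summed level of the members was 1230 and 1290 CPM in the control libraries against 1373 and 1375 CPM in the EGCG libraries, or 1260 ± 42.3 against 1374 ± 1.91 CPM (SD, n = 2). The sum was 9.01% higher with EGCG, a difference larger than the spread between replicates. An exact two-sided permutation test gave p = 0.333, the smallest that 2 libraries against 2 allow. As a share of all counts the members took 0.1265% and 0.1283% in the control libraries against 0.1353% and 0.1358% in the EGCG libraries. The ratio of the summed large subunit to the summed small subunit was 2.69 and 2.78 in the control libraries against 2.77 and 2.74 in the EGCG libraries, which overlap.

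Control replicate 1 was the lowest library. The median log2 difference over the members was 0.10 from control replicate 1 to EGCG replicate 1 and 0.11 to EGCG replicate 2, and from control replicate 2 it was 0.06 and 0.08. The control libraries themselves differed by 0.04 (control replicate 2 higher for 47 of the 77 members), and the EGCG libraries by 0.0073. Over all tested genes none of these pairs had a median of more than 0.01. Without control replicate 1 the median log2 fold change of the members was 0.07 with 53 higher, and without EGCG replicate 2 it was 0.07 with 53 higher. For 61 of the 77 members leaving out 1 library moved the log2 fold change by more than 1.5 times or turned its sign, which turned for 28. Without control replicate 2, edgeR's quasi-likelihood test called 3 members (Mrps18c, Mrpl33 and Mrpl20), where 2.31% of 15325 genes were called. Without EGCG replicate 2 it called 2 members (Mrps18c and Mrpl33), where 1.64% of 15324 genes were called. It called 0 members without control replicate 1 or without EGCG replicate 1. Members that were higher at an unadjusted p under 0.05 numbered 5 without control replicate 1 (6.49%, against 2.59% of all genes tested in that fit) and 13 without control replicate 2 (16.9%, against 6.78%). They numbered 6 without EGCG replicate 1 (7.79%, against 4.23%) and 6 without EGCG replicate 2 (7.79%, against 3.90%). Members that were lower at that level numbered 1 without EGCG replicate 1 and 0 in the other fits with a library left out, where between 3.93% and 7.58% of all genes were lower.

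**Figure D4:**
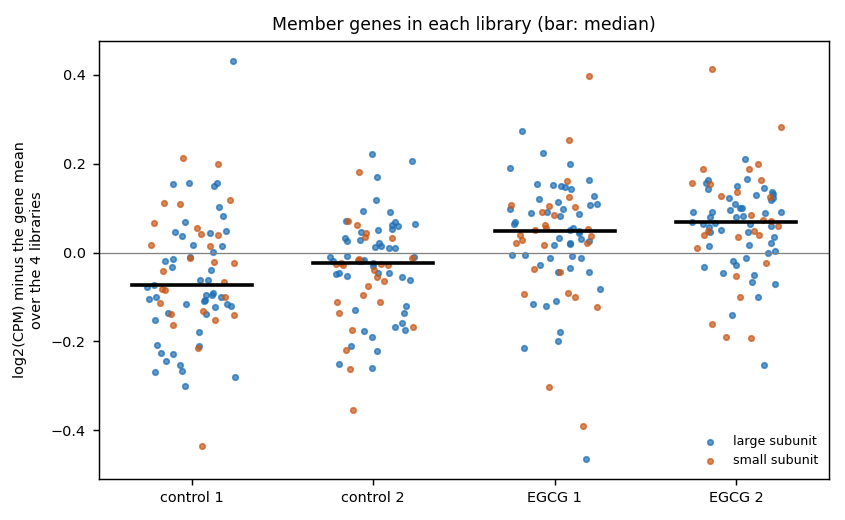
Log2 CPM of each tested member minus its mean over the 4 libraries (y axis), by library (x axis), with a point for each member and bars for the medians. The medians of the EGCG libraries lie above 0 and those of the control libraries below 0, lowest in control replicate 1, and the points of all 4 libraries overlap widely.

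Fold changes in this series were correlated with gene length, and the members are short. The median exonic length was 2533 bases for the members and 3814.5 bases for all tested genes, and the Spearman correlation of the log2 fold change with exonic length was -0.286 across 14666 genes and -0.156 across the members, which share their libraries. Among members of at most 1667 bases 76.9% were higher, against 62.6% of all tested genes in that range of lengths. Among members of 1693 to 3291 bases the shares were 76.0% and 61.5%, and among those of 3332 to 8631 bases 69.2% and 45.5%. After a correction for length in each library the median log2 fold change of the members was 0.09, with 53 of 77 higher. The part of length in the result was not tested beyond these values.

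The rRNAs that these proteins assemble on were also higher in the EGCG libraries. mt-Rnr2, the rRNA of the large subunit, had 1532 and 1892 CPM in the control libraries against 2442 and 2139 CPM in the EGCG libraries. For mt-Rnr2 the log2 fold change of 0.42 (standard error 0.10) had an adjusted p of 0.133 by edgeR's quasi-likelihood test, which ran from 0.000158 to 0.650 over the alternative fits. It was called with DESeq2, with library size only, and without control replicate 2 or EGCG replicate 2. mt-Rnr1, the rRNA of the small subunit, had 865 and 1018 CPM against 1220 and 1086 CPM (log2 fold change of 0.29, standard error 0.09, adjusted p = 0.230), and was called without control replicate 2 or EGCG replicate 2. Both were lowest in control replicate 1 and highest in EGCG replicate 1. Of the 13 mRNAs that this ribosome translates, 11 were higher (median log2 fold change of 0.18) and 0 passed the test, with 4 at an unadjusted p under 0.05. Among them mt-Nd1 was at 0.21 (standard error 0.09) and mt-Nd4 at 0.22 (0.10), both encoding subunits of complex I, and mt-Nd4 was called without EGCG replicate 2. Without EGCG replicate 1 the median of these mRNAs was -0.02, and without EGCG replicate 2 it was 0.31. The log2 fold change of mt-Nd1 ran from 0.11 to 0.31 over the alternative fits, and that of mt-Nd4 from 0.05 to 0.38. Low counts limit mt-Atp8, mt-Nd3 and mt-Nd4l, which had 8 to 22 counts in a library. Of the higher mRNAs, mt-Co2, mt-Co3, mt-Atp6, mt-Atp8 and mt-Nd5 lay within 1 standard error of 0, with overlapping groups. The same held for mt-Nd3 and mt-Nd4l, which were lower.

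Mitochondrial ribosomal proteins with other symbols were split. Of 5 genes, Aurkaip1 (log2 fold change of 0.25, standard error 0.09, adjusted p = 0.274), Gadd45gip1 (0.46, standard error 0.23) and Chchd1 (0.27, standard error 0.14) were higher with EGCG. Aurkaip1 was called without control replicate 2. Dap3 was at -0.04 (0.09) and Ptcd3 at -0.16 (0.13). Over the alternative fits Aurkaip1 ran from 0.15 to 0.37, Gadd45gip1 from 0.34 to 0.61 and Chchd1 from 0.17 to 0.38. Dap3 ran from -0.08 to -0.0026 and Ptcd3 from -0.24 to -0.08. With these 5 genes added, 60 of 82 genes were higher and the median was 0.11.

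Factors that build and serve the mitochondrial ribosome were also examined. Of 25 assembly factors, 16 were higher (median log2 fold change of 0.03) and 0 passed the test. The smallest p values were those of Rcc1l, which takes part in large-subunit assembly (log2 fold change of -0.49, standard error 0.20), and of the GTPase Mtg1 (0.44, standard error 0.20). Of 14 tested translation factors, 8 were higher (median of 0.07), with Tsfm, the elongation factor Ts, at 0.30 (0.22) and the membrane insertase Oxa1l at 0.10 (0.09). Of 17 mitochondrial aminoacyl-tRNA synthetases, 8 were higher (median of -0.0084), with Lars2 at 0.27 (standard error 0.09, adjusted p = 0.235). Among 19 genes of mitochondrial transcription and RNA metabolism, 10 were higher (median of 0.02), with Mterf1a, a transcription termination factor, at 0.52 (0.18) and Slirp, an RNA-binding protein, at 0.83 (0.36) from 25 and 14 counts against 30 and 39. In the alternative fits Rcc1l ran from -0.68 to -0.32, Mtg1 from 0.32 to 0.58, Tsfm from 0.18 to 0.41 and Oxa1l from 0.05 to 0.16. Lars2 ran from 0.21 to 0.38, Mterf1a from 0.43 to 0.60 and Slirp from 0.49 to 1.29. Single libraries moved the medians of these lists. Without EGCG replicate 1 that of the translation factors was -0.05 with 6 higher. Without control replicate 2 that of the assembly factors was -0.01 with 12 higher, that of the synthetases -0.04 with 7 higher, and that of the transcription and RNA genes 0.15 with 11 higher. The median of the synthetases turned to 0.04 with 11 higher when control replicate 1 was left out. Whether these groups differ from the members was not tested.

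Genes of the cytosolic ribosome and of the respiratory chain, whose core subunits the mitochondrial ribosome makes, are given beside the members. Of 85 tested cytosolic ribosomal protein genes, 70 were higher (median log2 fold change of 0.14), and of 78 tested nuclear genes of the respiratory chain, 70 were higher (median of 0.15). By edgeR's quasi-likelihood test 0 genes passed in either list. At an unadjusted p under 0.05, 23 of the 85 cytosolic ribosomal protein genes were higher and 2 were lower. Of the 78 respiratory chain genes 26 were higher at that level and 0 were lower, and of the 77 members 7 were higher and 0 were lower. Over all tested genes 5.22% were higher and 7.02% were lower at that level. The difference between the lists and the members was not tested. The length correction moved the medians of the cytosolic and respiratory chain lists to 0.10 and 0.11. For the cytosolic list, leaving out control replicate 1 gave a median of 0.08 and leaving out control replicate 2 gave 0.23. The genes with the smallest p in the cytosolic list were Rps16 of the small subunit, with 20.2 and 17.96 CPM against 24.9 and 27.3 CPM (log2 fold change of 0.45, standard error 0.11, adjusted p = 0.132) and Rpl10a of the large subunit with 25.5 and 21.7 CPM against 16.8 and 17.2 CPM (log2 fold change of -0.47, standard error 0.12, adjusted p = 0.128). Among respiratory chain genes they were Uqcrq of complex III, at 0.33 (standard error 0.08, adjusted p = 0.122), and Ndufv2 of complex I, at 0.32 (0.10, adjusted p = 0.222), both higher in the EGCG libraries than in either control library. None of these 4 genes passed the test with all libraries and TMM scaling. Rpl10a, Uqcrq and Ndufv2 did without control replicate 2, Rps16 did without EGCG replicate 1, and Rpl10a also did with library size only. Cytosolic ribosomal protein genes have many near-identical pseudogenes, so their counts are uncertain.

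**Figure D5:**
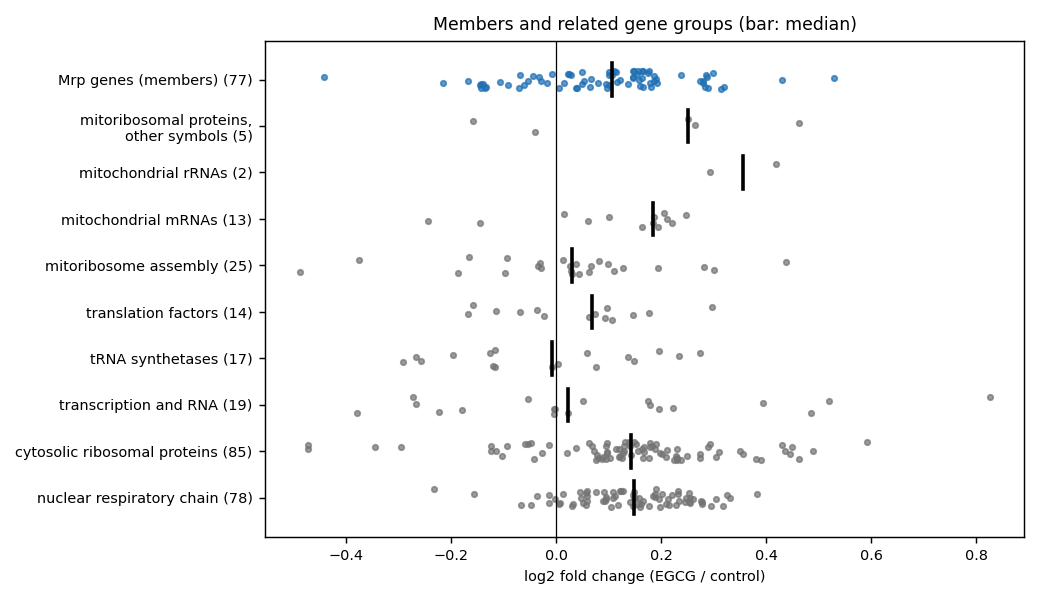
Log2 fold change (EGCG over control, x axis) of the members and of related gene groups (y axis, number of tested genes in brackets), with a point for each gene and a bar for the median. The median is 0.11 for the members, 0.18 for the mitochondrial mRNAs, 0.15 for the nuclear respiratory chain genes and -0.0084 for the mitochondrial aminoacyl-tRNA synthetases.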

How the data were processed

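RNA of 4 libraries of spleen-sorted MDSCs was sequenced, 2 of the control group and 2 of the EGCG treatment group, grouped by their labels. The deposited values are whole-number counts per gene, not normalized, which the authors made with STAR (2.6.0c) on GRCm38 and featureCounts (1.6.2, genes of Ensembl release 91, strand ignored). The table has 0 columns from other samples and 0 lines without a gene. The members and all gene lists were chosen with earlier results of these data known.

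From the deposited counts, genes with few reads were removed with filterByExpr of edgeR (4.0.16, minimum count of 10), TMM factors were applied, and the EGCG and control groups were fitted with the legacy quasi-likelihood test and no block. Adjusted p values (Benjamini-Hochberg) cover all 14682 tested genes, the threshold is 0.05, and the standard error is the log2 fold change divided by the square root of F. A trial of the test on simulated data is not reported here, and no result rests on it. CPM used the TMM-scaled library sizes. Exonic lengths and overlaps came from GENCODE M21 (GRCm38), which is not the release of the counting, and shared sequence is the percent of 31-base words also found in transcripts of other genes. Promoter windows came from RefSeq (GRCm38.p6).

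Members named in the text are the 4 with the smallest p in each subunit, the 3 highest and 3 lowest per kilobase, the untested one and a set with known roles. Of each related list, the 2 genes with the smallest p were named (Chchd1, Dap3, Ptcd3, Mrpl32, Mrpl37, Mrpl46, Mrps2 and Mrps25 were added after their values were seen). The result of 1 gene under this rule is not reported here. The alternatives were other scalings and filters, the newer and the robust quasi-likelihood fit, DESeq2 (1.42.0), a length correction (loess span of 0.4), a replicate block and leaving out each library. Floors cover counting error only. Other tools were R 4.3.3, Python 3.11.15, pandas 2.3.3, NumPy 2.4.6, SciPy 1.17.1 and matplotlib 3.10.9.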

Additional observations from a re-analysis of the deposited data

How the results depend on the processing

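Members called by edgeR's quasi-likelihood test numbered 0 in all fits to the 4 libraries and 0 to 3 with a library left out. Over all fits the median log2 fold change of the members lay between 0.07 and 0.12 and the number of higher members between 52 and 59, with the lowest number for library size only. Of the 77 tested members, 48 (39 higher and 9 lower) kept their direction in all 15 alternative fits. The log2 ratio of the summed level, 0.12, became 0.090 with library size only and lay between 0.091 and 0.16 with a library left out. The median level per kilobase was 6.53 with the longest transcript.

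With library size only, the log2 fold change of Mrpl11 was -0.020, of Mrpl24 -0.011 and of Mrps30 -0.0047. With the length correction it was -0.0087 for Mrpl11, -0.011 for Mrpl24, 0.0089 for Mrpl3 and -0.010 for Mrps21. The replicate numbers are not known to pair the libraries (the deviations of control 1 and EGCG 1 from their group means had a correlation of 0.0268 across tested genes). With the replicate block the median of the members was 0.11, with 57 higher and 0 called, and 30 genes of the whole table were called against 22. With the replicate block and the length correction together, the log2 fold change was -0.0077 for Mrpl11, -0.013 for Mrpl24, 0.0071 for Mrpl3 and -0.010 for Mrps21. Genes called in the whole table numbered 11 with upper-quartile scaling, 151 with library size only, 63 with the robust fit, 64 with DESeq2, 8 with the length correction and 0 without a filter on low counts.

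With a library left out, the log2 fold change ran from -0.089 to 0.14 for Mrpl11, from -0.16 to 0.068 for Mrpl22, from -0.054 to 0.10 for Mrpl24, from -0.15 to 0.039 for Mrpl28, from -0.13 to 0.066 for Mrpl3, from -0.018 to 0.12 for Mrpl4, from -0.0021 to 0.36 for Mrpl41, from -0.043 to 0.24 for Mrps12, from -0.014 to 0.28 for Mrps18a, from -0.27 to 0.016 for Mrps18b, from -0.19 to 0.29 for Mrps30 and from -0.44 to 0.23 for Mrps36. The cause of these changes was not tested. A lone library of a group was assumed to vary like the other group. Depth limits Mrpl23 and Mrps36 most, at 14 to 30 counts.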
